A study of Macaca mulatta with 12 samples.

Results

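Ribosomal protein genes encode the proteins of the cytosolic ribosome, which makes every cellular protein outside the mitochondrion. The rows taken here are those of the deposited count matrix whose symbol begins RPL or RPS and a digit, or is RPLP0, RPLP1, RPLP2 or RPSA, without RPS4Y1, RPS4Y2, pseudogenes and the 10 S6 kinase symbols that begin RPS6K. They were 79 of 22584 listed rows, and all 79 had a count in at least 1 cell. By symbol, 41 were proteins of the large subunit and 28 of the small subunit, and 4 were paralogues (RPL22L1, RPS27L, RPL36AL and RPL3L). A further 4 were second rows of a symbol already counted (among them RPS24.1, RPS27A.1 and RPS2.1). The last 2, RPS19BP1 and RPL7L1, fit the rule by their symbols but are not named as ribosomal proteins. RPLP0, RPS6, RPS10, RPS18, RPL11, RPL29, RPL36A, RPL10L, RPL26L1 and RPL39L were not analysed here.

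The study profiled blood B cells of 6 healthy, untreated rhesus macaques of Indian origin, all juveniles 2 to 3 years old. Blood was drawn under ketamine, with or without dexmedetomidine. Mononuclear cells of each animal gave a 5' single-cell expression library and a B cell receptor library. Both males (male 1 and male 2) were in batch 1 and all 4 females in batch 2, so that sex and batch cannot be told apart. The authors' cell table placed 13324 cells in 12 B cell subtypes and 525 in a class called contamination, which was left out. Subtypes carry the authors' names, and those with MBC are taken as memory B cells. Immunoglobulin class and light chain were read from the receptor libraries, where 10293 cells had exactly 1 heavy chain of known class, 2380 of them of a switched class, which means IgG, IgE or IgA, and 7913 with IgM or IgD (unswitched).

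Each ribosome holds, with few exceptions, 1 copy of each of its proteins, and the cell makes these proteins in matched amounts. Their mRNAs begin with a run of pyrimidines (the 5' TOP motif) through which mTOR signalling and the binding protein LARP1 control translation of the whole family at once. A resting lymphocyte is small and translates little, and ribosome production rises when a B cell is activated or becomes an antibody-secreting cell. Some family members have paralogues whose use differs between tissues, and RPL22, with its paralogue RPL22L1, is known for its part in lymphocyte development.

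Each animal contributed 563 to 3048 B cells, with a median of 4018 to 6736 UMIs (unique molecular identifiers, counted molecules) per cell. Over all cells of the series the 79 rows took 16.1% of UMIs. In the sums of B cells they took 18.5% in male 1, 18.0% in male 2, 14.0% in female 1, 14.8% in female 2, 15.3% in female 3 and 18.5% in female 4. Female 4, the smallest library, thus stood with the males and apart from the other females. The authors' own percentage of ribosomal UMIs per cell equalled the share of all symbols beginning RPS or RPL in each of 13849 cells, and differed from the share of the 79 rows by less than 1 percentage point. The authors' doublet call was singlet for every deposited cell, and 96 cell barcodes occurred in more than 1 library.

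Naive B cells 1 devoted the largest share of their UMIs to ribosomal protein genes. The share was 21.9% in male 1, 24.0% in male 2, 18.5% in female 1, 18.5% in female 2, 20.4% in female 3 and 23.4% in female 4 (21.1% ± 2.38, SD, n = 6). It ranked first in all 6 animals among the 10 subtypes other than Naive B cells 3 and antibody-secreting cells, which had too few cells in some animals. Subtypes were annotated from the same expression values, so differences between them are descriptions and were not tested.

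M-MZL BC (18.7% ± 1.98, lowest animal 15.7%, median 19.0%, highest 21.2%) and C-MBC 2 (18.4% ± 1.34, lowest 16.7%, median 18.6%, highest 20.01%) came next. Their ranks changed places between animals, and their difference was smaller than either SD. M-MBC 1 had 17.8% ± 2.01 and activated B cells 16.9% ± 1.38, followed by C-MBC 1 at 15.9% ± 1.72 and M-MBC 2 at 15.8% ± 1.71. Means of neighbours in this middle order differed by less than their SD over animals, which also holds differences shared by all subtypes of an animal. Within animals, activated B cells ranked above C-MBC 1 in all but female 4. M-MBC 1 ranked above activated B cells in all but female 2 and female 3, and C-MBC 1 above M-MBC 2 in all but female 2 and female 4. The CD11c+ memory cells were lower, with 15.1% ± 1.22 in CD11c+ MBC 1 and 13.7% ± 1.47 in CD11c+ MBC 2, and the latter ranked ninth of 10 in all 6 animals. Every subtype stood below Naive B cells 1 of the same animal in every animal with at least 10 cells of it.

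**Figure D1:**
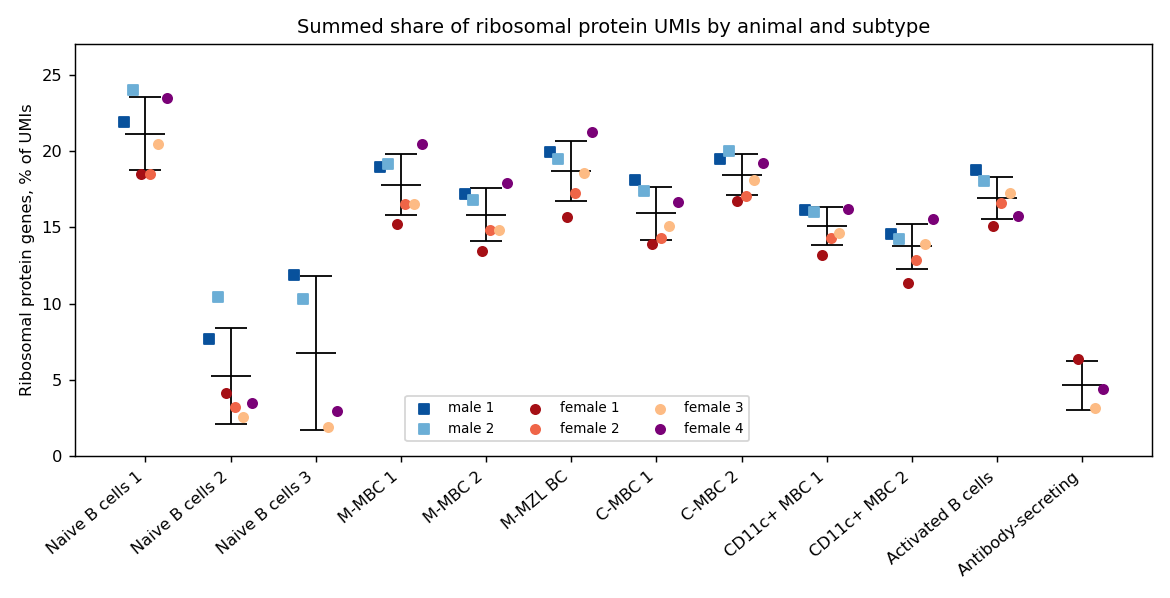
Share of UMIs from the 79 ribosomal protein rows (vertical axis, percent) in each annotated subtype (horizontal axis). Each point is the sum of 1 animal with at least 10 cells, and black bars are means ± SD over animals. Naive B cells 1 lie highest in every animal, and Naive B cells 2 and 3 and antibody-secreting cells lie below the rest of the same animal. Between animals the points can overlap, as Naive B cells 3 of male 1 (11.9%) lie above CD11c+ MBC 2 of female 1 (11.35%).

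Naive B cells 2 had the lowest share of these 10 subtypes in all 6 animals, although Naive B cells 3 were lower still in female 3 and female 4. It was 7.70% in male 1, 10.4% in male 2, 4.14% in female 1, 3.21% in female 2, 2.56% in female 3 and 3.51% in female 4 (5.26% ± 3.12). Both males lay above all females. Naive B cells 3, with at least 10 cells in 4 animals, had 11.9% in male 1, 10.3% in male 2, 1.91% in female 3 and 2.99% in female 4. Antibody-secreting cells, with enough cells in 3 females, had 6.35% in female 1, 3.13% in female 3 and 4.43% in female 4. Those cells spend much of their mRNA on immunoglobulin, and with unnamed identifiers and immunoglobulin genes left out of the total their share was 10.1% ± 2.95. That mean was below the means of the 9 high subtypes, but in female 1 the share was 13.4%, above CD11c+ MBC 2 of that animal at 13.1%.

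With cells pooled over animals, the low subtypes held cells of low and of high share. The mix differed between animals, and in female 4 the 95th percentile of Naive B cells 2 was only 2.06%. In Naive B cells 2 the median cell had 0.942% of its UMIs from ribosomal protein genes, and 349 of 446 cells (78.3%) lay under 5%. That part was 26 of 65 cells in male 2, and 54.2% of cells in male 1, 78.3% in female 1, 85.3% in female 2, 93.1% in female 3 and 96.0% in female 4. In Naive B cells 3 it was 76.8% of 125 cells and in antibody-secreting cells 66.1% of 56 cells. In the other 9 subtypes only 63 of 12697 cells lay under 5%, and Naive B cells 1 had a median of 21.3% with 90% of cells between 14.6% and 28.9%.

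**Figure D2:**
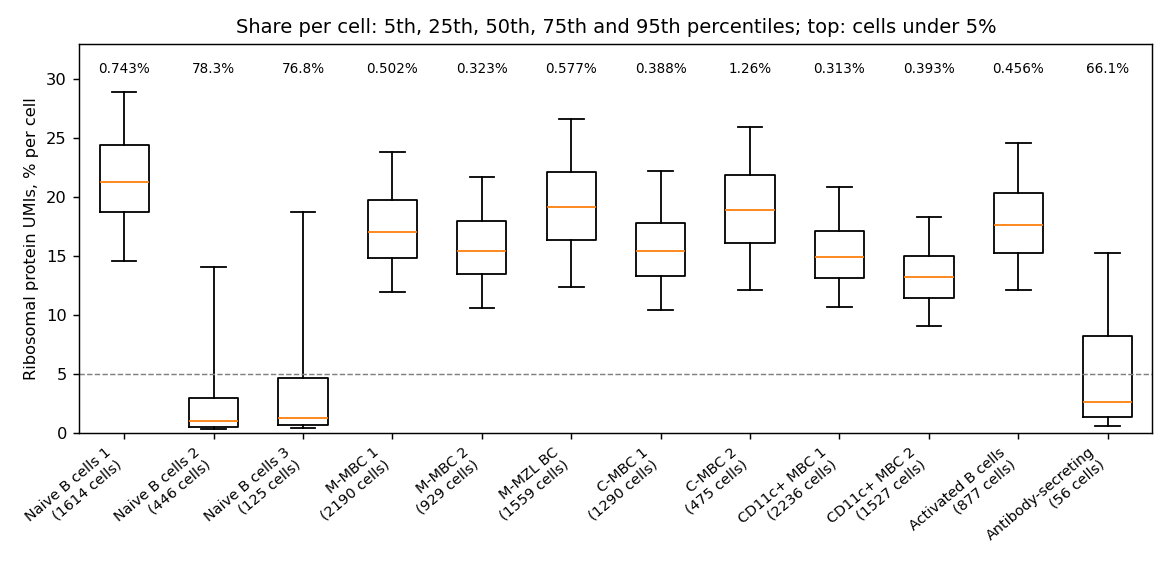
Share of ribosomal protein UMIs per cell (vertical axis, percent) by subtype, with the number of cells under each name. Boxes and lines mark the 5th, 25th, 50th, 75th and 95th percentiles over cells and the numbers at the top give the percent of cells under 5%. Cells are pooled over animals. In Naive B cells 2 and 3 most cells lie under 5% while the upper percentile reaches 14.05% and 18.7%.

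With cells pooled over animals, cell quality moved with the low share. Such pooled contrasts also hold differences between animals, and of the 349 cells of Naive B cells 2 under 5%, 202 were of female 3. Within Naive B cells 2, cells under 5% had a median of 2247 UMIs and 5.39% mitochondrial UMIs, and 11.5% of them had a receptor contig. Cells of 5% or more had 5156 UMIs, 2.22% mitochondrial UMIs and a contig in 71.1%. Within Naive B cells 3 the corresponding values were 1745 against 2975 UMIs, 5.07% against 2.66% mitochondrial UMIs and 17.7% against 62.1% of cells with a contig. In antibody-secreting cells they were 4182 against 12699 UMIs, 3.34% against 2.71% and 62.2% against 89.5%. Within the 3 animals with enough of these cells the mitochondrial difference did not hold. There the correlation of the share with mitochondrial percent was positive (0.08 to 0.71), and that with UMIs per cell ran from -0.58 to 0.48. Within single animals of Naive B cells 2 (6 animals), the correlation of the share with UMIs per cell ran from -0.05 to 0.60. Its correlation with mitochondrial percent ran from -0.41 to -0.19. In Naive B cells 3 (4 animals) these ran from -0.16 to 0.60 and from -0.55 to -0.01. The part of RNA quality in the low share was not tested.

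B cell and other lineage markers bear on the identity of Naive B cells 2. Of 7 B cell markers, 4 were higher there than in Naive B cells 1 in 6 of 6 animals and 2 lower, with a median log2 difference of 0.69. Over all 7896 genes 31.6% were higher and 9.63% lower in 6 of 6 animals, with a median of 0.40. MS4A1 (CD20) was among the higher (0.69 ± 0.46) and CD79A, a receptor signalling chain, lower in 6 of 6 (-0.96 ± 0.58). The summed level of 10 T cell markers was 73.4 to 297.5 CPM over animals (CPM, counts per 1000000 UMIs of named genes other than immunoglobulin genes), against 34.9 to 348 CPM in Naive B cells 1, and that of 8 monocyte markers was 39.6 to 78.6 against 14.4 to 69.9 CPM. The 8 natural killer cell markers summed to 8.35 to 115 against 13.4 to 207 CPM, with KLRD1, PRF1 and NCAM1 at 0, and 6 platelet and red cell markers to 31.4 to 414 against 19.5 to 314 CPM. These ranges overlapped for each list.

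Almost the whole family was lower in the 3 low subtypes. Members with a mean of at least 10 CPM numbered 75. Of these, 71 were lower in Naive B cells 2 than in Naive B cells 1 in all 6 animals and 0 higher, beside 9.63% of all 7896 genes lower and 31.6% higher. Their median log2 difference was -1.99, against 0.40 for all genes. In Naive B cells 3 69 members were lower in 4 of 4 animals (7.08% of genes lower, 36.1% higher) with a median of -1.999 against 0.66. In antibody-secreting cells 62 were lower in 3 of 3 animals and 1 higher (13.2% of genes lower, 35.3% higher) with a median of -1.15 against 0.44.

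The 4 members not lower in every animal in Naive B cells 2 were RPL31 (-1.18 ± 1.16, lower in 5 of 6) and the rows RPS19BP1, RPL7L1 and RPS2, whose mean log2 differences were 0.56 ± 0.80, 0.20 ± 1.04 and 0.32 ± 1.28. None of the last 3 exceeded Naive B cells 1 in more than 4 of 6 animals, and RPL7L1 and RPS2 had few counts (13.8 ± 6.15 CPM for RPL7L1 and, by animal, 0 to 121 CPM for RPS2 in Naive B cells 1). RPS19BP1, which binds RPS19 and is not part of the ribosome, was the 1 member higher in antibody-secreting cells of all 3 animals (140 ± 24.6 CPM there and 68.0 ± 49.8 in Naive B cells 1). It was also the 1 member higher in all 6 animals in M-MBC 1, M-MBC 2, C-MBC 1 and both CD11c+ subtypes.

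Among the other subtypes the family moved less and mostly down. Members lower in all 6 animals numbered 66 in CD11c+ MBC 1 (14.0% of all genes) and 67 in CD11c+ MBC 2 (16.1%), with medians of -0.43 and -0.54. They numbered 62 in C-MBC 1 (14.4%), 57 in M-MBC 2 (11.0%), 49 in M-MBC 1 (8.57%) and 49 in activated B cells (12.8%), with medians of -0.33, -0.34, -0.21 and -0.24. M-MZL BC had 38 lower (8.6%) and 3 higher (17.1% of genes higher), and C-MBC 2 had 30 lower (10.4%) and 11 higher (17.1%), with medians of -0.11 and -0.08. The median over all genes lay between -0.03 and 0.10 in these 8 subtypes. In the remaining 6 of them 1 member or none was higher in every animal, beside 15.6% of genes in M-MBC 1, 19.7% in M-MBC 2, 18.4% in C-MBC 1, 21.0% and 21.8% in the CD11c+ subtypes and 14.2% in activated B cells.

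**Figure D3:**
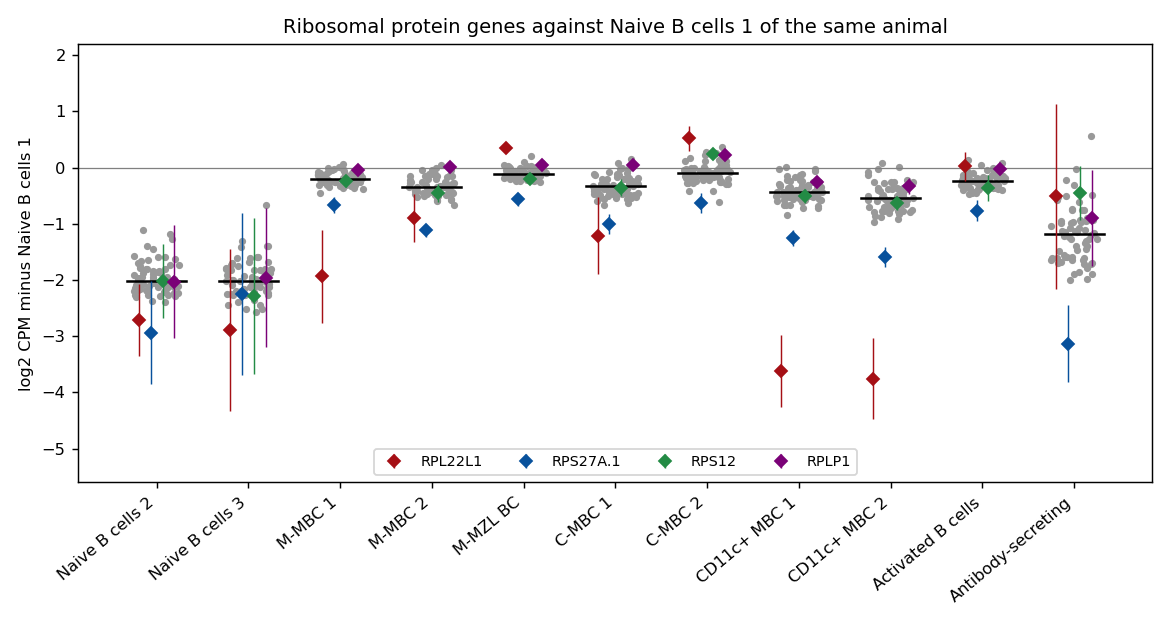
Difference in log2 CPM from Naive B cells 1 of the same animal (vertical axis) in the other 11 subtypes. Points are means over animals of the 70 members with a mean of at least 100 CPM, 4 of them drawn as coloured diamonds with the SD over animals and the others in grey, and bars are medians over members. RPL22L1 lies far below the median in the CD11c+ subtypes and above 0 in M-MZL BC and C-MBC 2. The SD over the 75 members of at least 10 CPM runs from 0.155 in M-MZL BC to 0.758 in antibody-secreting cells.

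The proportions of members within the family varied less over the 9 high subtypes than over all 12. For each of 70 members with a mean of at least 100 CPM, the share within the summed ribosomal protein UMIs was taken per animal and subtype. The SD of its log2 value over the 12 subtype means had a median of 0.159 over members, and over the 9 high subtypes 0.0771. Of the 12 means, that of Naive B cells 3 rests on 4 animals and that of antibody-secreting cells on 3, in small sums. Differences between animals and counting error thus enter the SD over 12 subtypes. For the SD over animals, the log2 share of each animal was first averaged over the 9 high subtypes. This SD had a median of 0.125 over members. It measures spread between animals, whereas the SD over subtypes compares means over animals, so their sizes are not directly comparable.

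The steadiest members were 3 proteins of the large subunit and 1 of the small subunit. RPL37 had an SD over the 12 subtypes of 0.046, RPS3A 0.057, RPL5, which binds 5S rRNA and can hold the p53 regulator MDM2, 0.067, and RPL10, which joins the large subunit late in its assembly, 0.070. RPL5 had 2461 to 3659 CPM over animals in Naive B cells 1 (median 3005), 363 to 1841 in Naive B cells 2 (median 665) and 1702 to 2381 in CD11c+ MBC 2 (median 2056). Its log2 differences of -1.94 ± 0.71 in Naive B cells 2 and -0.57 ± 0.06 in CD11c+ MBC 2 lay close to the family's medians there.

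The largest SD over the 12 subtypes belonged to RPL22L1 (1.35), RPS27L (0.563), RPS27A.1 (0.460) and RPS3 (0.385). This order holds the same limit, since antibody-secreting cells and Naive B cells 3 enter it with 3 and 4 animals. RPS27L, a paralogue of RPS27 and a known target of p53, had 127 ± 13.9 CPM in Naive B cells 1. Its mean was close to that in CD11c+ MBC 2 (139 ± 40.3) and activated B cells (135 ± 38.8), where most of the family was lower. In antibody-secreting cells, where most of the family was lower too, its mean was higher, with a wide spread over 3 animals (188 ± 102). The partner of RPS27L, RPS27, went with the family, at 2084 ± 263 CPM in Naive B cells 1 and 1444 ± 271 in CD11c+ MBC 2, lower in 6 of 6 animals. RPS3, a small subunit protein at the mRNA entry, had 909, 1922 and 1430 CPM in antibody-secreting cells of female 1, 3 and 4, where Naive B cells 1 had 685, 2009 and 1954, so that it was lower there in 2 of 3 animals. The SD of its log2 share over animals was 0.485 and that of its means over the 9 high subtypes 0.0814.

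RPS27A encodes ubiquitin fused to a small subunit protein, and its symbol occurs on a pair of rows. The second, RPS27A.1, held nearly all its counts. In Naive B cells 1 it had 13015 to 17066 CPM over animals with a median of 14231. It was 8347 to 10618 in C-MBC 2 (median 9291) and 3630 to 5299 in CD11c+ MBC 2 (median 5140). The ranges of these 3 subtypes did not overlap, and in each of the 11 subtypes every animal had less of it than its own Naive B cells 1. In CD11c+ MBC 2 its log2 difference was -1.59 ± 0.18 and in antibody-secreting cells -3.13 ± 0.68. Reads of the gene and of near-identical copies may be split between such rows, so the values of RPS2, RPS24 and RPS27A rows are uncertain.

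RPL22L1 showed the widest range of the family over the 9 high subtypes. Its mean was 17.0-fold higher in C-MBC 2 than in CD11c+ MBC 2, and the next members with a mean over 10 CPM, RPS27A and RPS27A.1, spanned 3.00-fold and 2.99-fold. RPL22L1 can stand in for its paralogue RPL22, which is known to hold its expression down.

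In Naive B cells 1 RPL22L1 had 458 CPM in male 1, 588 in male 2, 379 in female 1, 320 in female 2, 498 in female 3 and 557 in female 4. In C-MBC 2 it had 760, 872, 505, 357, 678 and 961 CPM in the same order, higher in each animal (log2 difference 0.52 ± 0.23). In M-MZL BC it had 630, 774, 493, 398, 563 and 724 CPM, also higher in each animal (0.35 ± 0.10). C-MBC 2 exceeded M-MZL BC in 5 of 6 animals, with overlapping ranges.

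RPL22L1 was lowest in both CD11c+ subtypes. It had 45.1, 65.1, 43.6, 16.8, 20.3 and 56.1 CPM in CD11c+ MBC 1 and 39.6, 67.8, 19.2, 11.99, 29.5 and 74.4 CPM in CD11c+ MBC 2, in the same order of animals. The log2 differences from Naive B cells 1 were -3.62 ± 0.64 and -3.76 ± 0.72. Every value of both lay below the lowest animal of Naive B cells 1, of C-MBC 2 and of M-MZL BC, and both CD11c+ subtypes differed from each other by less than their spread.

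Between these ends lay M-MBC 2 with 261 ± 105 CPM, C-MBC 1 with 228 ± 123 and M-MBC 1 with 142 ± 79.2, each lower than Naive B cells 1 in 6 of 6 animals. The ranges of these 3 overlapped. Activated B cells had 480 ± 138 CPM, above Naive B cells 1 in 3 of 6 animals. Naive B cells 2 had 74.5 ± 38.1 CPM, and in Naive B cells 3 the level was 146, 155, 32.3 and 0 CPM in male 1, male 2, female 3 and female 4. Antibody-secreting cells had 971 CPM in female 1 but 142 in female 3 and 234 in female 4.

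RPL22 did not follow this pattern. It had 1785 to 2652 CPM in Naive B cells 1 (median 2043), 1660 to 2240 in C-MBC 2 (median 1758) and 1128 to 1681 in CD11c+ MBC 2 (median 1494). Its log2 difference from Naive B cells 1 was between -0.12 and -0.55 in the 8 other high subtypes, and it was lower in every animal in each of them.

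**Figure D4:**
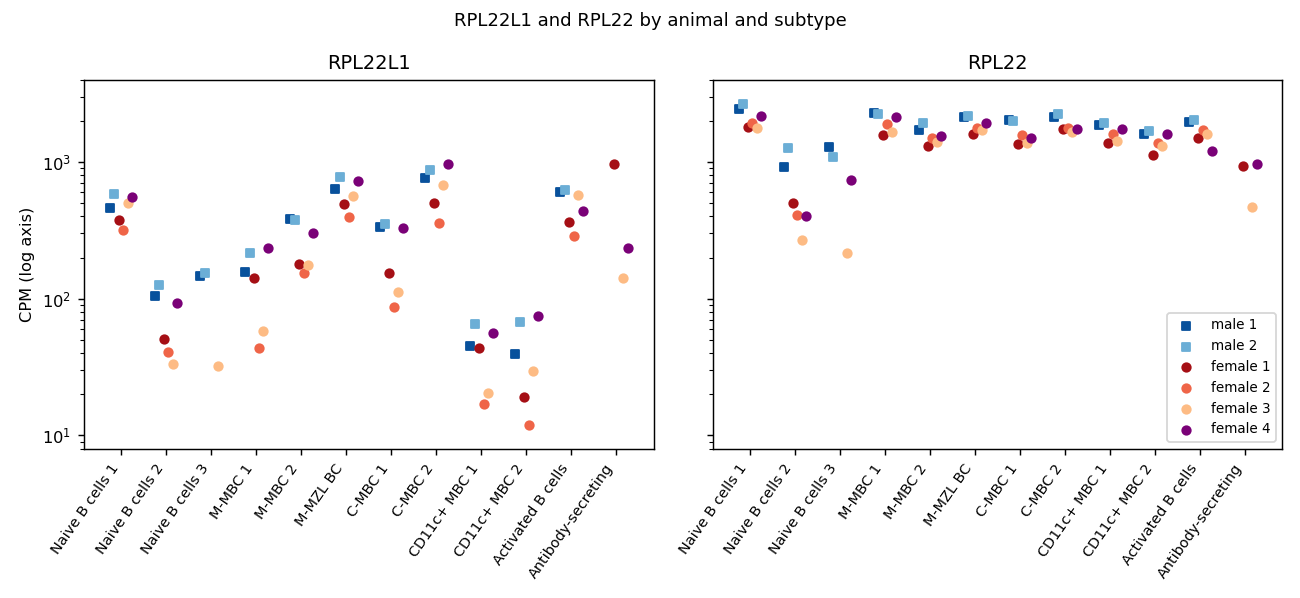
CPM of RPL22L1 (left) and RPL22 (right) on a log axis, by subtype, with 1 point for each animal. RPL22L1 in female 4 of Naive B cells 3 was 0 and is not drawn. RPL22L1 spans 0 to 971 CPM over all sums while RPL22 stays between 1128 and 2652 CPM in the 9 high subtypes.

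The 11 of 75 members higher in C-MBC 2 than in Naive B cells 1 in all 6 animals were a smaller share than the 17.1% of all genes, and came from both subunits. Among them, besides RPL22L1, were RPS12 (0.24 ± 0.05), RPS20 (0.22 ± 0.10), RPL4 (0.14 ± 0.04), RPL27A (0.28 ± 0.18), RPL36 (0.37 ± 0.11), RPL39 (0.17 ± 0.15), which lines the peptide exit tunnel, and the stalk proteins RPLP1 (0.22 ± 0.04) and RPLP2 (0.11 ± 0.09). RPS2 was also among them but was counted only through the prior count added before the logarithm, since its CPM were 6.35 against 6.91 in male 1 and 0 in both subtypes in female 2. RPS12 had 6043 to 8486 CPM in C-MBC 2 (median 6998) and 5098 to 7630 in Naive B cells 1 (median 5789). Within each animal C-MBC 2 was the higher, although the ranges over animals overlapped. The stalk proteins RPLP1 and RPLP2 recruit elongation factors to the ribosome and had log2 differences from Naive B cells 1 between -0.047 and 0.046 in M-MBC 1, M-MBC 2, M-MZL BC, C-MBC 1 and activated B cells. RPSA, the small subunit protein also known as the laminin receptor, was lower in all 6 animals in 7 of the 8 other high subtypes and at -0.016 ± 0.10 in C-MBC 2.

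RPL3L, a muscle paralogue of RPL3, was at 0 in all 6 animals in Naive B cells 1, M-MBC 2 and CD11c+ MBC 1 and had at most 10.5 CPM in any sum. RPS15A, a core protein of the ribosome, had means of at most 10.0 CPM in the 9 high subtypes. These levels are those of the deposited rows, and reads that the authors' annotation assigned to other identifiers are not in them.

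Class-switched cells had a lower share of ribosomal protein UMIs than unswitched cells of the same animals. In the order male 1, male 2, female 1, female 2, female 3 and female 4, the share was 17.1%, 17.0%, 13.1%, 14.1%, 14.5% and 16.9% in switched cells. In unswitched cells it was 19.0%, 18.3%, 14.6%, 15.7%, 16.5% and 20.3%. The difference was -1.97 ± 0.77 percentage points and negative in 6 of 6 animals.

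Of 77 members tested, 45 were lower in switched cells and 0 higher at an adjusted p under 0.05, beside 11.7% of 9649 genes lower and 13.3% higher. Adjusted p-values here and below are from edgeR's quasi-likelihood test on counts summed per animal and class, with the animal as a block. The median log2 difference was -0.14 over members and -0.0049 over all genes. Members lower in each of the 6 animals numbered 52, against 12.3% of all genes, and 0 were higher in each, against 11.8%. The large subunit had 25 of 41 members lower and the small subunit 17 of 28, and their medians were both -0.14.

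RPL22L1 changed most. It had 324, 433, 139, 80.4, 115 and 383 CPM in switched cells, in the order above, and 445, 452, 209, 125, 236 and 619 CPM in unswitched cells, lower in each animal although the ranges overlapped. The log2 difference was -0.58 ± 0.09 (SE, adjusted p = 0.00032). RPS27A.1 had 4989 to 8178 CPM in switched (median 6922) and 6688 to 11171 in unswitched cells (median 9434), and fell by 0.43 ± 0.04 (adjusted p = 1e-06, lower in 6 of 6). RPL41, the smallest ribosomal protein, had medians of 114 and 169 CPM and fell by 0.32 ± 0.08 (adjusted p = 0.0068, lower in 6 of 6).

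The first row of RPS27A, at 23.2 ± 4.14 against 29.0 ± 6.84 CPM, fell by 0.32 ± 0.11 (adjusted p = 0.04, lower in 5 of 6), and its call was lost without any 1 animal other than female 2 (adjusted p from 0.066 to 0.15).

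Other members with known roles fell by less. RPL5 fell by 0.16 ± 0.04 (adjusted p = 0.0082), RPS19, whose loss of 1 copy causes Diamond-Blackfan anaemia, by 0.17 ± 0.04 (adjusted p = 0.0054) and the X-linked RPS4X by 0.17 ± 0.03 (adjusted p = 0.002). RPL22 fell by 0.14 ± 0.04 (adjusted p = 0.013) and RPL3 by 0.20 ± 0.04 (adjusted p = 0.0015). The stalk proteins did not pass the test, with -0.0013 ± 0.032 for RPLP1 and 0.025 ± 0.038 for RPLP2, nor did RPSA at -0.042 ± 0.039. RPS12 and RPL39 were at -0.021 ± 0.033 and -0.021 ± 0.045. The paralogues RPS27L (0.044 ± 0.078) and RPL36AL (-0.029 ± 0.050) did not pass it either, whereas RPS27 fell by 0.15 ± 0.04 (adjusted p = 0.017). RPL26, RPL7 and RPL7L1 were at -0.049 ± 0.047, -0.049 ± 0.050 and -0.078 ± 0.16.

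The classes were made of different subtypes. Of switched cells, 28.8% were CD11c+ MBC 2 and 28.3% C-MBC 1 and 0.168% were Naive B cells 1. Of unswitched cells, 21.5% were M-MBC 1, 18.4% Naive B cells 1 and 17.0% M-MZL BC. In sums over all B cells, a different mix of subtypes and a different level per cell cannot be told apart. Markers of other cells moved too: PPBP and PF4 of platelets were lower in switched cells (-0.42 ± 0.09 and -0.40 ± 0.10), as 2 of 3 tested in that list. CD8A was lower (-1.33 ± 0.21) and CD3G higher (0.64 ± 0.13) among 9 T cell markers tested (3 lower, 1 higher), NKG7 was higher (0.69 ± 0.17) among 5 natural killer markers and CST3 (0.93 ± 0.24) among 2 monocyte markers. Of 7 B cell markers 2 were lower, CD79B (-1.18 ± 0.12) and PAX5 (-0.78 ± 0.06), and 1 higher. The summed T cell markers ranged from 49.9 to 280 CPM in switched and 99.8 to 345 CPM in unswitched cells. Their part in the result was not tested.

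Within memory subtypes, with animal and subtype both as blocks, 1 of 72 members passed the test between switched and unswitched cells and 0 were higher (background 1.26% of 4913 genes lower and 1.18% higher). The members' median was -0.03. The 1 was RPL22L1, which fell by 0.51 ± 0.13 (adjusted p = 0.016) and was lower in 22 of 27 pairs of sums. These pairs, and the 63 sums tested, came from 6 animals. Sums of several subtypes of 1 animal are not independent replicates, so the adjusted p may be too small. By subtype, the mean log2 difference was -0.90 ± 0.61 (SD) in C-MBC 1 (lower in 5 of 5 animals), -0.86 ± 0.48 in CD11c+ MBC 2 (5 of 5) and -0.93 ± 0.79 in M-MBC 2 (3 of 3). It was -0.43 ± 0.87 in CD11c+ MBC 1 (4 of 6), -0.45 ± 0.84 in M-MBC 1 (4 of 5) and -0.07 ± 0.39 in C-MBC 2 (1 of 3).

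That call was fragile. The adjusted p was 0.051 without female 1, female 2 or male 2 in turn. When the memory subtypes were summed together, with the animal as the only block, RPL22L1 was higher in switched cells (0.43 ± 0.12, adjusted p = 0.021), and of 76 members 2 rose and 9 fell, beside 7.11% of 9247 genes higher and 6.93% lower. C-MBC 2, where RPL22L1 is high, was 11.1% of switched and 0.885% of unswitched cells over all subtypes.

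IgA cells had more ribosomal protein transcripts than IgG cells for some members. The comparison rested on 5 animals, since female 2 had fewer than 10 IgA cells, and on sums of 21 to 773 cells. The share of UMIs was 18.2%, 20.2%, 14.1%, 15.8% and 16.1% in IgA cells of male 1, male 2, female 1, female 3 and female 4, and 16.9%, 16.6%, 13.0%, 14.5% and 17.0% in their IgG cells. It was thus higher in 4 of 5 animals and lower in female 4.

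Of 73 members tested, 10 were higher in IgA cells and 0 lower, beside 5.09% of 6559 genes higher and 7.96% lower. Members higher in 5 of 5 animals numbered 29, against 8.49% of genes, and lower in all 5 numbered 0, against 12.6%, and the members' median was 0.15 against 0.00072 over all genes. The calls comprised 4 of 40 large subunit proteins, 3 of 26 small subunit proteins, 2 second rows and RPL22L1.

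RPL22L1 had 753, 880, 446, 798 and 681 CPM in IgA cells, in the order just given, and 277, 363, 122, 83.5 and 339 CPM in IgG cells. All IgA values lay above all IgG values, and the log2 difference was 1.80 ± 0.21 (SE, adjusted p = 1e-06). RPS12 had 6959, 8470, 5020, 5211 and 5828 CPM in IgA and 5560, 5887, 3679, 4137 and 5530 CPM in IgG cells, higher in each animal with overlapping ranges (0.34 ± 0.08, adjusted p = 0.0028).

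The remaining differences were of about the same size. RPS2.1 had 1158 to 1300 CPM in IgA (median 1238) and 838 to 1125 in IgG cells (median 993), without overlap (0.30 ± 0.10, adjusted p = 0.044). RPL9 had medians of 1948 and 1560 CPM (0.30 ± 0.09, adjusted p = 0.03), RPS19 of 5000 and 4484 CPM (0.29 ± 0.08, adjusted p = 0.018) and RPL39 of 2833 and 2283 CPM (0.29 ± 0.09, adjusted p = 0.037), each higher in 5 of 5 animals. RPL32 and RPL37 also rose in 5 of 5 animals and RPS27A.1 in 4 of 5. The number of members called higher was 3 of 73 without female 1, beside 252 of 6236 genes. It was 2 of 73 without female 3 (210 of 6602 genes) and 5 of 73 without male 2 (275 of 6708). Without male 1 it was 7 of 73 (282 of 6583) and without female 4 it was 12 of 74 (274 of 6646). Without female 1 or female 3 the members were thus called about as often as all genes.

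IgA cells were mostly of 1 subtype. C-MBC 2 held 90 of 153 IgA cells (58.8%) and 7.58% of IgG cells. When only C-MBC 2 cells of both classes were compared, in 5 animals, 0 of 71 members were higher and 1 lower (RPS12, -0.27 ± 0.06, adjusted p = 0.0068), beside 0.481% of 2910 genes higher and 1.24% lower. RPL22L1 was then at -0.054 ± 0.14 (adjusted p = 0.93), RPS19 at -0.075 ± 0.066 and RPL39 at -0.17 ± 0.076. With antibody-secreting cells, 9.80% of IgA and 0.451% of IgG cells, left out instead, 22 of 73 members were higher, beside 5.51% of genes. Both comparisons were added after the data had been seen.

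Other lineage genes moved in the same comparison. Of 7 B cell markers, 5 were lower in IgA cells and 1 higher, with CD22 at -1.82 ± 0.22 and CD79A at -0.72 ± 0.10. CD3D was higher (1.49 ± 0.22, 1 of 3 T cell markers tested), as was HBA (1.26 ± 0.26, 1 of 3 platelet and red cell markers), and LYZ, the 1 monocyte marker tested, was lower (-1.49 ± 0.39). Neither of 2 natural killer markers passed the test. The summed T cell markers were 110 to 465 CPM in IgA and 43.3 to 240 CPM in IgG cells. Their part was not tested.

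**Figure D5:**
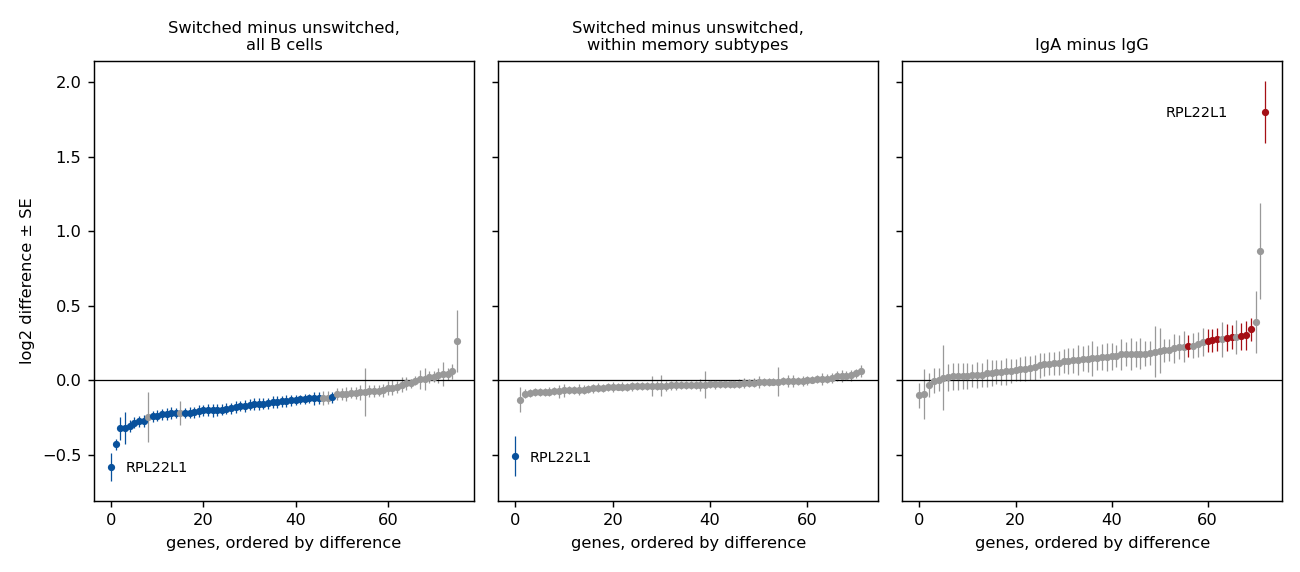
Log2 difference with SE (vertical axis) of each ribosomal protein row between switched and unswitched cells (left), between the same classes within memory subtypes (middle) and between IgA and IgG cells (right), ordered by size, with calls at an adjusted p under 0.05 in blue (lower) or red (higher). 1 row with a larger SE is not drawn in the left panel. Most rows lie below 0 in the left panel and above 0 in the right one, with RPL22L1 at -0.58, -0.51 and 1.80 from left to right.

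No single member was called between the light chains at an adjusted p under 0.05. Between kappa and lambda cells of the same 6 animals 0 of 76 members passed edgeR's test (background 0.0409% of 9773 genes higher and 0.0512% lower), 2 had an unadjusted p under 0.05 (5.55% of all genes), and DESeq2 called 0 with 1 under 0.05. The share was 16.7% ± 2.05 in kappa and 16.7% ± 2.14 in lambda cells, with a difference of 0.022 ± 0.214 percentage points. Among Naive B cells 1 alone, 0 of 73 members passed and 14 had an unadjusted p under 0.05 (4.73% of 5792 genes), with a median of -0.06 and 68 members below 0. Of the marker genes GNLY (-0.62 ± 0.11) and GZMB (-0.76 ± 0.15) of natural killer cells were lower in kappa cells. A test of whether the class differences themselves differed between the batches called 0 members for switching, IgA or light chain. The smallest adjusted p among members was 0.70 for RPL22L1 in the switching comparison. Over all genes that test called 0 of 9649, 0 of 6559 and 4 of 9773. It thus called almost no gene, and the 0 members say little about agreement between the batches.

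The males of batch 1 lay above the females of batch 2 for part of the family. With edgeR, 0 of 77 members passed the test (background 0.224% of 11180 genes higher and 0.116% lower in males). An unadjusted p under 0.05 was found for 15 members, near the 17.7% of all genes. DESeq2 called 4 higher and 2 lower, beside 2.64% of genes higher and 3.03% lower. The members' median was 0.39 and that of all genes -0.03. Both males lay above all 4 females for 26 of 75 members, against 9.5% of genes, and below them for 5, against 20.9%.

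RPS24 and RPL37A were among the members without overlap. RPS24.1 had 3527 and 3520 CPM in the males and 1704, 1598, 1411 and 2111 in the females, while the first row, RPS24, had 19.8 and 40.1 against 70.6, 66.3, 90.8 and 113 CPM. Summed over both rows, RPS24 had 3546 and 3560 CPM in the males and 1502 to 2223 in the females, without overlap. RPL37A had 5643 and 5852 CPM in the males and 3813, 3007, 2619 and 1695 in the females. RPS3 had 638 CPM in female 1 and 1082 to 1754 in the other 5 animals. Female 1 was thus the lowest animal for that gene.

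Ribosomal genes under other names went partly with the family. RACK1, a scaffold protein of the small subunit, fell in switched cells by 0.27 ± 0.04 (adjusted p = 0.00018) and FAU, which encodes a small subunit protein fused to a ubiquitin-like one, by 0.10 ± 0.03 (adjusted p = 0.038), as 2 of the 3 genes in that list. In IgA cells RACK1 rose (0.29 ± 0.09, adjusted p = 0.032) and FAU did not pass the test. Across subtypes RACK1 was lower than Naive B cells 1 in every animal of each, from -0.19 ± 0.09 in C-MBC 2 to -0.95 ± 0.07 in CD11c+ MBC 2 among the high subtypes.

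Of 22 tested translation factors and other mRNAs with a 5' TOP motif, 2 rose and 4 fell in switched cells, with a median of -0.08. The 2 were VIM, the intermediate filament vimentin (0.46 ± 0.05, adjusted p = 3.8e-06), and PABPC4, a poly(A) binding protein (0.60 ± 0.09, adjusted p = 0.00016). In IgA cells 3 of 22 rose and 0 fell, among them the elongation factor subunit EEF1B2 (0.48 ± 0.10, adjusted p = 0.0016) and VIM (0.34 ± 0.09, adjusted p = 0.011). EEF1A1, which brings aminoacyl-tRNA to the ribosome, was below Naive B cells 1 in all animals of each subtype but C-MBC 2, where it was at 0.01 ± 0.18.

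The lists here are read beside the 13.3% of all genes higher and 11.7% lower in switched cells, and the 5.09% higher and 7.96% lower in IgA cells. Of 35 ribosome biogenesis genes tested in switched cells, 1 rose and 8 fell (median -0.03), with PPAN, a factor of large subunit assembly, at -0.76 ± 0.09 (adjusted p = 1.2e-05) and WDR43, a nucleolar processing factor, at -0.39 ± 0.09 (adjusted p = 0.0036). Of 22 genes that control ribosome synthesis, 3 rose and 2 fell (median -0.04), near the shares over all genes. The 2 were MYC, a driver of ribosome production (-1.003 ± 0.24, adjusted p = 0.0066), and SESN1, an inhibitor of mTOR signalling (-0.90 ± 0.13, adjusted p = 0.00016). In IgA cells 0 of 29 biogenesis genes passed edgeR's test (3 at an unadjusted p under 0.05, beside 1558 of all 6559 genes). Of the control genes 1 rose (MDM2, 0.80 ± 0.24) and 1 fell (DDIT4, -0.64 ± 0.20).

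Mitochondrial ribosomal proteins belong to another ribosome. In switched cells 10 of 69 tested rose, near the 13.3% of all genes, and 2 fell (median 0.07), with MRPL18 at 0.45 ± 0.11 (adjusted p = 0.0074) and MRPS34 at 0.28 ± 0.08 (adjusted p = 0.016). In IgA cells 1 of 62 rose (MRPL52, 1.02 ± 0.25) and 1 fell (MRPL39, -0.78 ± 0.24). Within memory subtypes 0 genes of these 5 lists passed edgeR's test, with 9 at an unadjusted p under 0.05. The lists had 3, 22, 21, 17 and 45 genes tested there, and over all genes 681 of 4913 had an unadjusted p under 0.05.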

How the data were processed

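Expression and receptor libraries of 6 animals were used. Per the submitters' processing notes, Cell Ranger 9.0.1, Seurat 5.0.1 and R 4.3.1 were used, whereas genome build and annotation are not given in the sources used here. Deposited by the authors were raw UMI counts per gene and cell, receptor contigs with their UMI counts, and a cell table with their subtype, their doublet call and the percent of ribosomal UMIs per cell. The 13849 deposited cells included 525 called contamination, which were left out. The 5813 identifiers without a name (14.9% of UMIs) and 23 immunoglobulin genes (0.186%) stayed out of the tests and of CPM, but not of the share of UMIs.

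Counts were summed per animal and subtype or class, for sums of at least 10 cells. Class comparisons used edgeR 4.0.16 (quasi-likelihood F test, filterByExpr, TMM scaling, Benjamini-Hochberg adjustment over all genes tested, threshold 0.05) with the animal as a block, since both classes came from the same animals. Males and females were compared without a block. The SE was the log2 difference divided by the root of F. CPM of class comparisons were TMM-scaled, those of subtypes were not. Subtype differences used log2 CPM with a prior count of 0.5, for genes with a mean of at least 10 CPM. DESeq2 1.42.0, its size factors, no filter on low counts, other library sizes and leaving out each animal were tried as alternatives. The tests were tested on simulated data. The precision of each value is limited by the 6 animals and, in small sums, by counting error.

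The members and the gene lists (ribosomal proteins under other symbols, TOP mRNAs, biogenesis, control of ribosome synthesis, mitochondrial ribosomal proteins, lineage markers) were chosen with earlier results of these data known. Named members were, per class comparison, up to 6 in each direction with the largest difference among those called, the 4 most and 4 least variable over subtypes, and the paralogue pairs, stalk genes, RPSA, RPS4X, RPS19 and RPL5. From each list the 2 genes with the smallest p were named, and other names were chosen after their values were seen. Some members, among them some that this rule names, are counted with the family but their own values are not reported here. MALAT1, NEAT1, EEF1D and HBB were not analysed here, nor were promoter sequences.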

Additional observations from a re-analysis of the deposited data

Results flagged for a closer look

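Of 50 groups of 4 or more values examined, 3 held 1 animal far from the rest, where chance gives about 1 in 20. RPS2 had 109 CPM in all B cells of female 4 and 2.86 to 3.54 CPM in the other females. RPL7L1 had 20.9 CPM in female 2 and 8.82 to 9.83 CPM in the other females. The log2 difference of RPS27A between switched and unswitched cells was 0.15 in female 2 and -0.47 to -0.32 in the other 5 animals.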

How the results depend on the processing

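Without the replicate block, which pairs both classes of an animal, 0 members were called for switching, 0 within memory subtypes and 1 for IgA. Calls over all genes fell too. They were 54 higher and 50 lower of 9649 for switching, 7 and 8 of 4913 within memory subtypes and 80 and 183 of 6559 for IgA. The cause was not tested. Within memory subtypes DESeq2 and no filter on low counts called 2 members lower each, beside 61 of 4913 and 170 of 14839 genes lower. The pooled memory sums called 11, with RPL22L1 at 0.43. For IgA, DESeq2 called 5 higher (261 of 6559 genes), no filter 2 (298 of 13758) and keeping unnamed and immunoglobulin genes 2 (277 of 6804). Leaving out antibody-secreting cells gave 22 and C-MBC 2 alone 1, where RPL22L1 was at -0.054, RPS12 at -0.27, RPS19 at -0.075 and RPL39 at -0.17. The last 2 settings were chosen after seeing the data and, like the kappa comparison in Naive B cells 1, use fewer cells. DESeq2 called 6 members between the sexes.

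Leaving out 1 animal gave 38 to 46 calls for switching, 0 to 1 within memory subtypes and 2 to 12 for IgA. For IgA the count was 3 without female 1, 2 without female 3 and 5 without male 2. Leaving out 1 animal gave 0 for light chain and sex. Over all genes those fits called 733 to 1083 lower for switching, 38 to 64 lower within memory subtypes and 210 to 282 higher for IgA. With only named genes other than immunoglobulin in the total, the share was 24.6% in Naive B cells 1, 22.2% in M-MZL BC, 22.2% in C-MBC 2, 21.0% in M-MBC 1, 19.96% in activated B cells, 18.7% in C-MBC 1, 18.7% in M-MBC 2, 17.5% in CD11c+ MBC 1, 16.0% in CD11c+ MBC 2 and 10.1% in antibody-secreting cells. Naive B cells 1 were highest and Naive B cells 2 lowest of 10 in 6 of 6 animals on that scale too. Of values for named members under alternatives, 113 kept direction and side of the threshold, 51 kept direction only and 5 reversed. Sums of 10 to 30 cells limit antibody-secreting cells and Naive B cells 3.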

Other observations

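Other genes of ribosome production were also compared with Naive B cells 1. Of 33 biogenesis genes, 15 were higher in antibody-secreting cells than in Naive B cells 1 in 3 of 3 animals and 3 lower (median log2 difference 0.44, the same as the 0.44 over all genes, of which 35.3% were higher and 13.2% lower). In activated B cells 9 were higher in 6 of 6 animals and 0 lower (median 0.40, against -0.03 over all genes, of which 14.2% were higher and 12.8% lower), and MYC was higher by 3.47 ± 0.91 in all 6. In CD11c+ MBC 2 MYC was lower by 1.70 on the log2 scale, in 6 of 6 animals. Of 22 translation factors and other TOP mRNAs, 16 were lower in Naive B cells 2 in 6 of 6 animals and 0 higher (median -1.34), 18 lower and 2 higher in CD11c+ MBC 2 (median -0.42), and 4 lower and 6 higher in C-MBC 2 (median 0.024). Of 66 mitochondrial ribosomal proteins, 19 were lower and 5 higher in Naive B cells 2 (median -0.65), and 2 lower and 18 higher in C-MBC 2 (median 0.31). Over all genes, 9.63% were lower and 31.6% higher in Naive B cells 2, 16.1% and 21.8% in CD11c+ MBC 2, and 10.4% and 17.1% in C-MBC 2. These are descriptions without a test.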
